A study of Mus musculus with 6 samples.

Results

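The genes described here encode some of the basement membrane components of cardiac fibroblasts (CFs) other than the laminins: the collagen IV chains *Col4a1*, *Col4a2* and *Col4a5*, the collagens XV (*Col15a1*) and XVIII (*Col18a1*), the nidogens *Nid1* and *Nid2*, perlecan (*Hspg2*) and agrin (*Agrn*). They are 9 of the 19446 genes in the table, were chosen by symbol with earlier results of these data in view, and were all among the 15948 genes tested. The transcriptomes had been measured by poly(A) RNA-seq of CFs grown from hearts of 5-week-old C57BL/6J mice, to ask how these cells change when the long non-coding RNA *Charme* is lost. There were 3 wild type (WT) libraries and 3 CharmeKO libraries, the latter from mice with a PolyA signal inserted into the *Charme* locus in the germ line, so that every cell type of the animal carries the change. All cells of both groups were explant outgrowths of atrial tissue on fibronectin-coated plates, kept in IMDM with 20% serum. The methods pool 6 littermates per explant culture, and nothing says which animals gave which library, so that p-values measure only the spread between these libraries. Freshly isolated CFs were not analysed here.

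Basement membranes are thin sheets of matrix under epithelia and endothelia and around muscle cells, fat cells and nerves. A collagen IV network and a laminin network form the sheet, nidogens bind both, and the heparan sulfate proteoglycans perlecan and agrin connect to them and hold growth factors. In the heart these sheets surround each cardiomyocyte and each capillary, and fibroblasts are among the cells that secrete their components. Collagens XV and XVIII lie where basement membranes meet the interstitial matrix and carry sugar chains of their own.

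*Col4a1* and *Col4a2* start 21 bases apart on opposite strands of chromosome 8 and are read away from each other, and their transcripts overlap by 22 bases. The stretch is shown because the levels of this pair of transcripts are followed together here. It is chr8:11312801-11312830 (GRCm38.p6, RefSeq, plus strand), and the capitals mark the bases from the start of *Col4a2* to that of *Col4a1*.
Col4a1 and Col4a2 start sites: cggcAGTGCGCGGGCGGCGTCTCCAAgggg
In the 300-base RefSeq windows around the starts, which were at hand for 8 of the 9 genes (all but *Nid2*), the windows of *Col4a1* and *Col4a2* share 78 bases. The 250 bases upstream of each start were searched on both strands for motifs that common transcription factors bind in many promoters. One was the GC box, spelled GGGCGG, which 32.7% of all 32851 RefSeq promoters held over the same length. Another was the CCAAT box, searched by the letters of its name and held by 33.8% of these promoters. The last was the TATA box, spelled TATAAA and held by 12.4% of them. The TATA letters were in none of the windows of the 8 genes. The GC box letters occurred 12 times before the first start of *Agrn* and 5 times before *Hspg2*. *Hspg2* and *Agrn* are shown as the proteoglycan genes whose values were lower in CharmeKO in every same-numbered pair, and *Col15a1* as the gene that varied most between libraries. Capitals mark the GC box on either strand, and a pair of boxes in *Agrn* shares 1 base. The windows are chr4:137468553-137468768 (plus strand) for *Hspg2*, chr4:156197489-156197738 (minus strand) for *Agrn* and chr4:47207762-47208011 (plus strand) for *Col15a1*, all GRCm38.p6, each 5′ to 3′ along its gene. The *Hspg2* stretch is cut to the first 216 of the 250 bases searched, as the gene of the GENCODE annotation begins there, before the RefSeq start. The GC shares given next are over all 250 bases.
Hspg2: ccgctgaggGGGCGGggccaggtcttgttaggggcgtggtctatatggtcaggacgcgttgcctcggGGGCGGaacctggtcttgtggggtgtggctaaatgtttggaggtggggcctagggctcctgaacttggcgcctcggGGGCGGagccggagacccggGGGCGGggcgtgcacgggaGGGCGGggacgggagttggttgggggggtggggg
Agrn: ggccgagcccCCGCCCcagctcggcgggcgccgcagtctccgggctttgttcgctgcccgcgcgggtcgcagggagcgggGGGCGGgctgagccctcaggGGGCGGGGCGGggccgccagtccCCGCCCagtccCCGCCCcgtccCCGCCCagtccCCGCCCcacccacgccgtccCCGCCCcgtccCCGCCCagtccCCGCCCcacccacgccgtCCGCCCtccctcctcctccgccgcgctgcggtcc
Col15a1: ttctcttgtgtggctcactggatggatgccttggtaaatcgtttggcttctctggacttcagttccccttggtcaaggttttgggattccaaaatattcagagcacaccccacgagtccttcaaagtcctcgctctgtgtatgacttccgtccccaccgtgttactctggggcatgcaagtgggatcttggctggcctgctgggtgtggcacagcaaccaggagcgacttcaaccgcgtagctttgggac
The 250 bases upstream of *Col15a1* held none of the motifs, with 53.6% G and C, close to the median of 52.4% over all promoters, while the windows upstream of the first starts of *Agrn* (83.6%), *Col4a1* (74.4%), *Col4a2* (73.6%) and *Hspg2* (70%) were richer. A match is a description of letters and says nothing of binding.

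Library totals were 38330019 to 46797446 reads. The feature taken to be *Charme*, an inference since it is the only one without an Ensembl ID, was read 5, 15 and 11 times in the WT libraries and 0, 6 and 3 times in the CharmeKO libraries, where 0 reads allow up to 3, by counting error only. Fibroblast markers, 12 of 12 in the table, summed to 25522 to 54157 CPM (reads scaled by the library total) in WT and 33661 to 44649 in CharmeKO. Endothelial markers, whose cells rest on a basement membrane, summed to 64.1 to 95.2 CPM in WT and 31.5 to 150 in CharmeKO, mostly from *Flt1*, while *Tie1*, *Emcn* and *Cldn5* had no entry. Smooth muscle and pericyte markers, of cells that build basement membranes too, summed to 4061, 1521 and 6437 CPM in WT and 3729, 928 and 1507 in CharmeKO. Of these 15 genes, 10 were lower in CharmeKO in all 3 pairs, as were 14.0% of all genes tested. Macrophage markers spanned 25.1 to 404 CPM, with *Ptprc* at 0 in CharmeKO 3, and mesothelial markers 21.8 to 345 CPM. Cardiomyocyte markers, of which 3 of 9 were in the table, stayed at 3.22 to 18.5 CPM and Schwann cell markers at 0.897 to 6.51. In bulk RNA, fewer cells of a type and less RNA per cell cannot be told apart, and the part of these markers in the values below was not tested.

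**Figure D1:**
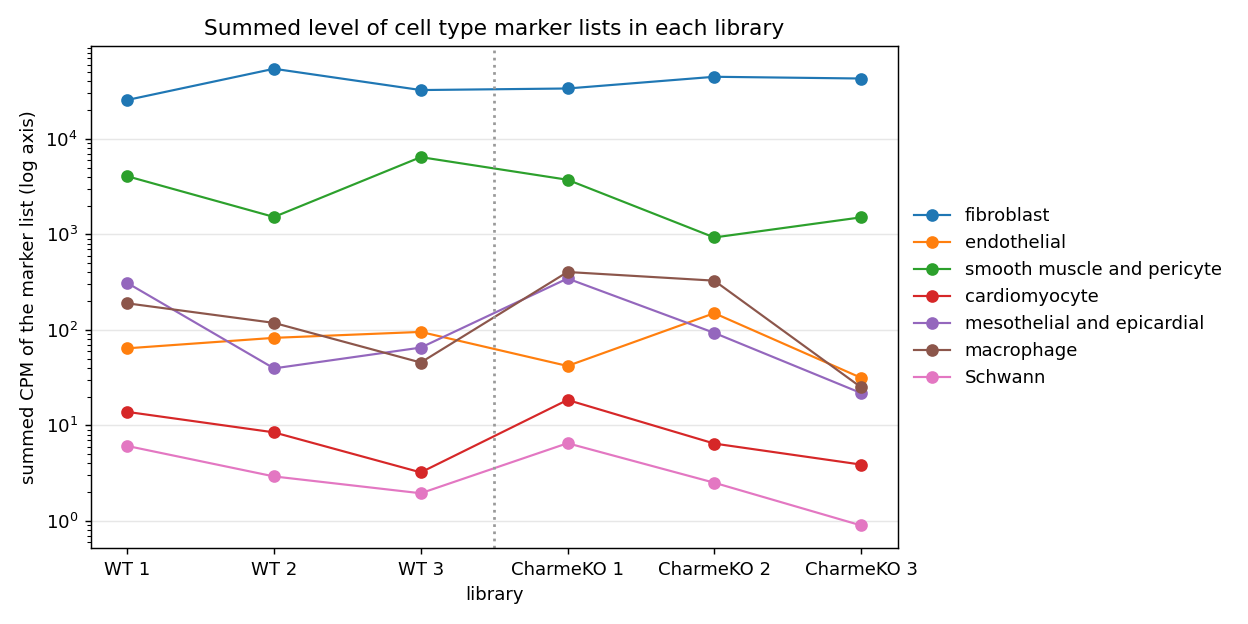
Summed level of each cell type marker list (vertical log axis, CPM) in each of the 6 libraries (horizontal axis), with lines joining the points of a list. Fibroblast markers lie highest in every library, and the smooth muscle and pericyte list is at 928 and 1507 CPM in CharmeKO 2 and 3 against 1521 and 6437 in WT 2 and 3.

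Together the 9 genes took 1.29%, 1.09% and 1.36% of all reads in WT 1, 2 and 3, and 1.28%, 0.910% and 2.09% in CharmeKO 1, 2 and 3. Levels of different genes are compared as normalised reads (reads divided by the size factor of the library) per kb of exon. On that scale the order was the same in WT 1, WT 3 and CharmeKO 1, led by *Col4a1*, *Col4a2*, *Nid1*, *Hspg2* and *Nid2*, with *Col4a5*, *Agrn*, *Col18a1* and *Col15a1* following. In WT 2 the last 2 places were exchanged. The upper genes were far above the lower ones. In WT, *Col4a1* averaged 22414 ± 2507 reads per kb (SD, n = 3) and *Col18a1* 379 ± 69.9. The CharmeKO averages were 19070 ± 6242 and 418 ± 85.2. CharmeKO 2 and CharmeKO 3 departed from the order, with *Nid2* in first place in both.

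**Figure D2:**
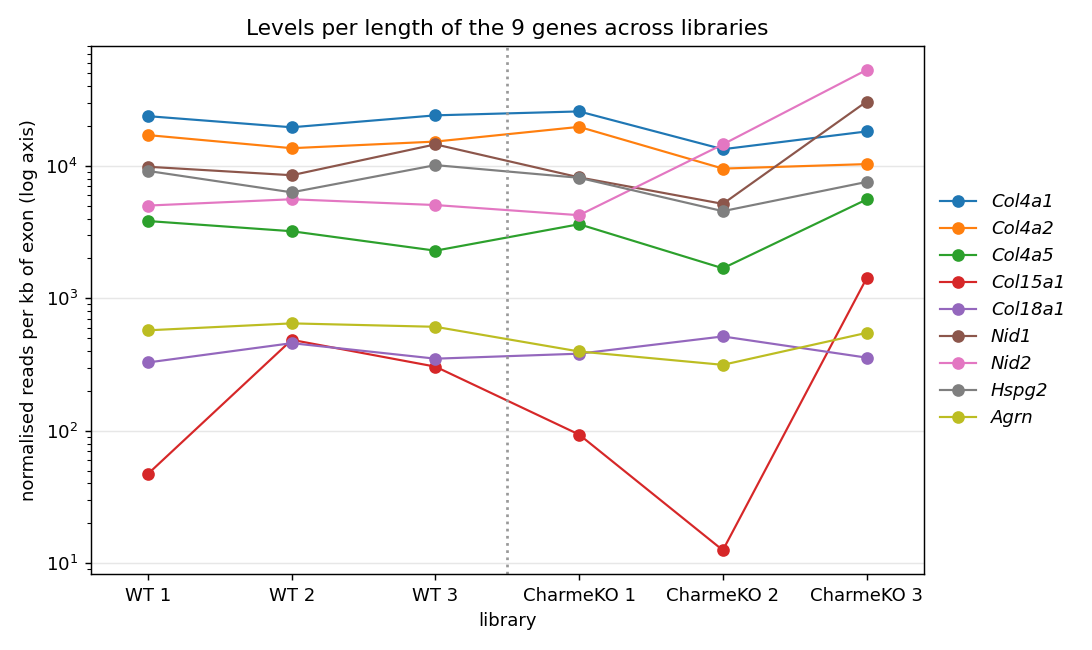
Normalised reads per kb of exon (vertical log axis) of the 9 genes in the 6 libraries (horizontal axis), with lines joining the points of a gene. *Nid2* has rank 5 in the 3 WT libraries and CharmeKO 1 and rank 1 in CharmeKO 2 and 3, and *Col15a1* spans 12.5 to 1413 reads per kb.

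Neighbours in the order of mean log2 level were set against each other within each library. *Col4a1* was above *Col4a2* in 6 of 6 libraries, *Hspg2* above *Col4a5* in 6 and *Col4a5* above *Agrn* in 6. The middle of the order was not separated beyond its spread. *Col4a2* was above *Nid1* in 5 of 6 libraries, *Nid1* above *Nid2* in 4 and *Nid2* above *Hspg2* in 2. At the lower end *Agrn* was above *Col18a1* in 5 and *Col18a1* above *Col15a1* in 4 of 6 libraries.

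*Col4a1* (ENSMUSG00000031502, chr8:11198423-11312826, minus strand, GRCm38) encodes the alpha-1 chain of collagen IV, which joins with the alpha-2 chain in the network of most basement membranes. It had 176804, 145740 and 179347 normalised reads in WT 1, 2 and 3 and 191957, 99517 and 135547 in CharmeKO 1, 2 and 3. The groups overlapped, with CharmeKO 1 the highest library and CharmeKO 2 the lowest. *Col4a2* (ENSMUSG00000031503, chr8:11312805-11449287, plus strand), which encodes the alpha-2 chain, had 112795, 89865 and 100807 in WT and 130166, 63030 and 68151 in CharmeKO. It had the same highest and lowest library as its neighbour. The log2 fold change of CharmeKO against WT, on the scale log2(value + 1), was -0.28 (SE 0.400) for *Col4a1* and -0.29 (SE 0.381) for *Col4a2*. Without CharmeKO 2 the differences were -0.046 and -0.097. These fits kept WT 2, the lowest WT library for both genes. Within pairs 1 and 3 the differences were 0.12 and -0.40 for *Col4a1* and 0.21 and -0.56 for *Col4a2*.

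The ratio of *Col4a2* to *Col4a1* per kb was 0.567 to 0.765 over the 6 libraries. Its log2 value averaged -0.55 ± 0.0946 among WT libraries (SD, n = 3) and -0.56 ± 0.226 among CharmeKO libraries. The spread of this ratio over all libraries (SD 0.155 log2 units) was smaller than that of either gene (0.353 for *Col4a1*, 0.410 for *Col4a2*), so the levels of the 2 chains moved together. Likeness of pattern was then measured as the root-mean-square difference of centred log2 values over the 6 libraries, among genes with a mean of at least 1000 normalised reads. *Col4a2* lay 0.142 log2 units from *Col4a1*, at rank 63 of 6571 genes, where the median gene lay at 0.371. The 5 genes most like *Col4a1*, members left aside, were *Wasf2* (0.0818), *Setd3* (0.0855), *Cdk5rap2* (0.0943), *Slc31a1* (0.0955) and *Ubap2* (0.0957). A likeness over 6 libraries that share their depth and replicate structure is a description.

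*Col4a5* (ENSMUSG00000031274, chrX:141475385-141689234, plus strand) encodes the alpha-5 chain, which is found in the basement membranes of kidney, lung and smooth muscle and is mutated in Alport syndrome. It had 25717, 21542 and 15362 normalised reads in WT and 24329, 11311 and 37395 in CharmeKO. CharmeKO held both the lowest and the highest library, and the log2 fold change was 0.09 (SE 0.461), with -0.30 without CharmeKO 3. *Col4a5* did not keep to the other chains, since the log2 ratio of *Col4a5* to *Col4a1* per kb had an SD of 0.562 over the libraries. Its own head-to-head neighbour on chromosome X, *Col4a6*, which encodes the alpha-6 chain and starts 1309 bases away, was looked at after its values had been seen. *Col4a6* was at 848, 1019 and 288 reads per kb in WT and 974, 237 and 2428 in CharmeKO. The log2 ratio of *Col4a6* to *Col4a5* had an SD of 0.69, against 0.155 for *Col4a2* to *Col4a1*, and *Col4a6* stood at rank 4185 of 6571 in likeness to *Col4a5*. Both measures also grow where a gene swings farther in the same direction as the other. *Col4a5* and *Col4a6* were both lowest in CharmeKO 2 and highest in CharmeKO 3. Between these libraries *Col4a5* went from 1684 to 5566 reads per kb and *Col4a6* from 237 to 2428. The wider ratio thus does not show that this pair moved apart. *Col4a3* and *Col4a4*, the pair on chromosome 1 with starts 72 bases apart, had few reads. *Col4a3* had 72.9, 14.9 and 54.9 normalised reads in WT and 67.3, 3.93 and 3.48 in CharmeKO.

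*Col15a1* (ENSMUSG00000028339, chr4:47208161-47313167, plus strand), the collagen XV gene, varied most. It had 300, 3084 and 1935 normalised reads in WT and 594, 79.6 and 8972 in CharmeKO. CharmeKO held both extremes, and the SD over the 6 libraries of 2.46 log2 units exceeded that of 98.9% of all genes tested. Its log2 fold change of -0.69 had an SE of 1.74. The value was -2.47 without CharmeKO 3 and 0.93 without CharmeKO 2, so that the direction rested on single libraries. Within pairs 1, 2 and 3 it was 0.98, -5.26 and 2.21.

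*Col18a1* (ENSMUSG00000001435, chr10:77052178-77166548, minus strand) encodes collagen XVIII, whose C-terminal end is released as endostatin, an inhibitor of vessel growth. It had 2301, 3219 and 2458 normalised reads in WT and 2680, 3617 and 2503 in CharmeKO. This was the steadiest of the 9 genes, with an SD of 0.253 log2 units over the libraries, at the 27.0th percentile of all genes. It was higher in CharmeKO within each pair, by 0.22, 0.17 and 0.03 on the log2 scale, while the groups overlapped. The libraries numbered 2 were the highest of both genotypes, and the replicate number held 87.9% of the variance of *Col18a1*, the most of any of the 9 genes, against 8.95% for genotype. Over all libraries the difference was 0.14 (SE 0.216), and -0.022 without CharmeKO 2. That fit kept WT 2, the highest WT library, while pairs 1 and 3 were at 0.22 and 0.03. With the replicate number as a block in limma the SE was 0.0887 and the unadjusted p 0.187 (limma adjusted p = 0.7997). *Col18a1* and *Agrn* each have a pair of starts in RefSeq, and reads counted per gene do not separate their isoforms.

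**Figure D3:**
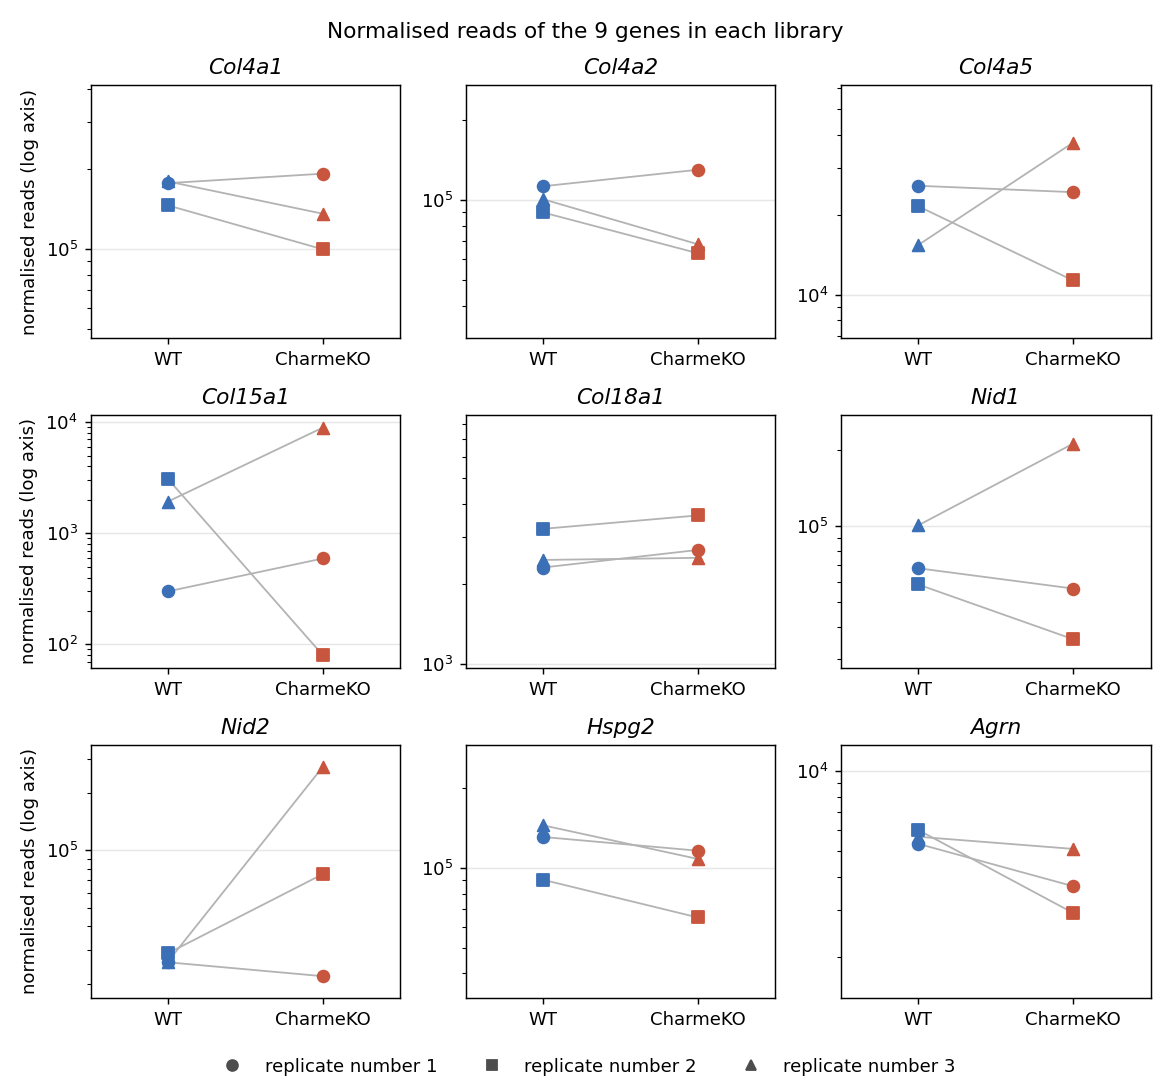
Normalised reads (vertical log axes, 1 panel per gene) in WT (blue) and CharmeKO (red), with marker shapes for the replicate numbers and lines joining same-numbered libraries. *Agrn* alone shows 3 CharmeKO values under all WT values, and *Nid2* spreads from 21923 to 273619 in CharmeKO against 25917 to 28915 in WT.

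The nidogens differed from each other. *Nid1* (ENSMUSG00000005397, chr13:13437551-13512269, plus strand) encodes nidogen-1, the main link between laminin and collagen IV. It had 68264, 58925 and 100746 normalised reads in WT and 56759, 35815 and 211758 in CharmeKO. CharmeKO 2 was the lowest and CharmeKO 3 the highest library, so the groups overlapped. The log2 fold change was 0.03 (SE 0.675), and -0.71 without CharmeKO 3. *Nid2* (ENSMUSG00000021806, chr14:19751265-19811787, plus strand) encodes nidogen-2, a second nidogen that can stand in for the first in mice. It had 25917, 28915 and 26151 in WT and 21923, 75021 and 273619 in CharmeKO. The WT libraries lay close together, at 26995 ± 1668 (SD, n = 3), while the CharmeKO libraries were at 0.812, 2.78 and 10.1 times the WT mean.

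The log2 fold change of *Nid2*, 1.51 (SE 0.849), was the farthest from 0 among the 9 genes. It was 2.20 with edgeR and 2.19 with DESeq2 on the recovered reads. In limma it was 0.59 without CharmeKO 3 and 2.41 without CharmeKO 1, and within pairs 1, 2 and 3 it was -0.24, 1.38 and 3.39. Macrophage, mesothelial, endothelial and Schwann cell markers were at their lowest in CharmeKO 3, where *Nid2* was highest (25.1, 21.8, 31.5 and 0.897 CPM). Fibroblast markers summed to 42815 CPM there, within the range of the other libraries. Most of that sum came from *Col1a1*, *Col1a2* and *Col3a1* (15099, 14745 and 8903 CPM). *Postn* (12.9 CPM) and *Thy1* (65.3 CPM) were at their lowest in CharmeKO 3, while the other listed fibroblast markers lay between their extremes. Smooth muscle and cardiomyocyte markers were lowest elsewhere, in CharmeKO 2 (928 CPM) and WT 3 (3.22 CPM). In CharmeKO 2, where *Nid2* was also raised, the endothelial sum was at its highest (150 CPM). *Flt1* alone gave 143 CPM of it, so this maximum describes a single gene rather than the list. Macrophage, mesothelial and Schwann cell markers were at 328, 93.0 and 2.51 CPM in CharmeKO 2. The part of these markers in the *Nid2* level was not tested. *Rtraf*, a gene on the opposite strand, covers 437 exonic bases of *Nid2* (8.45%), and the counting kept the strands apart.

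The ratio of *Nid2* to *Nid1* per kb ranged from 0.348 to 2.81. On the log2 scale it was -0.97, -0.60 and -1.52 in WT 1, 2 and 3 and -0.95, 1.49 and 0.79 in CharmeKO 1, 2 and 3. *Nid1* was thus the more abundant nidogen in WT and CharmeKO 1, and *Nid2* in CharmeKO 2 and 3. The WT libraries averaged -1.03 ± 0.462 (SD, n = 3) and the CharmeKO libraries 0.45 ± 1.26, with CharmeKO 1 inside the WT range. By pattern over the 6 libraries, the genes most like *Nid1* included *Gprc5b* (0.234 log2 units), *Efnb2* (0.262), *Hspb6* (0.307) and *Loxl2* (0.323). *Nid2* was most like *Rasl11a* (0.484), *Dlg3* (0.521), *Scara3* (0.566), *Lxn* (0.653) and *Slit3* (0.671), none of them as close as the genes next to *Nid1*. This measure also grows with the spread of a gene, and the SD over the libraries was 1.42 log2 units for *Nid2* and 0.879 for *Nid1*. The larger distances thus do not show that fewer genes followed *Nid2*.

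**Figure D4:**
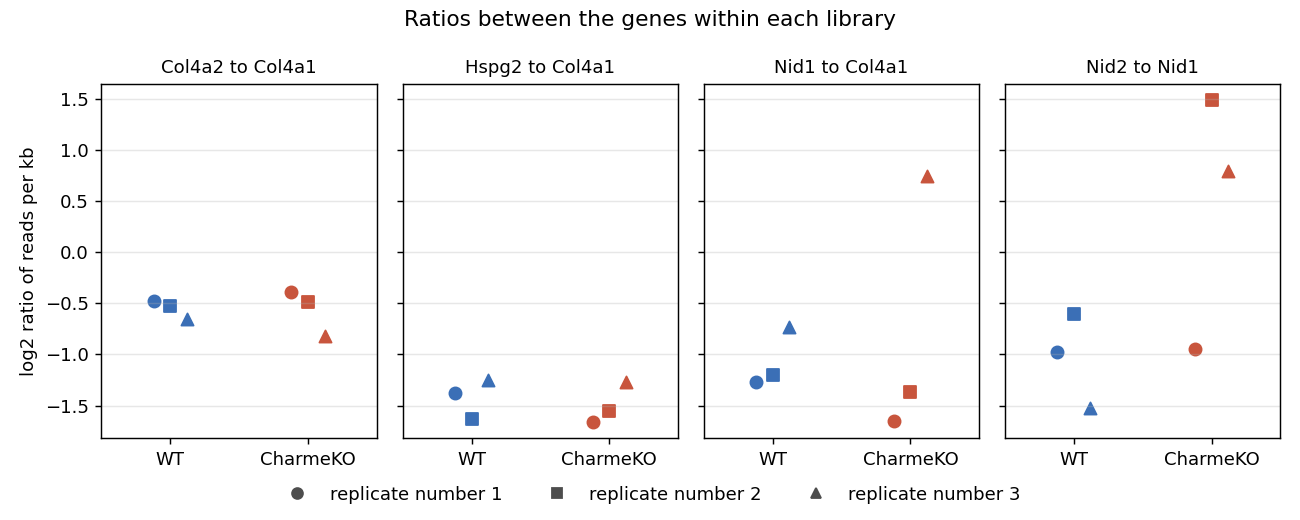
Log2 ratios of reads per kb between pairs of genes (vertical axis) in WT (blue) and CharmeKO (red), 1 point per library with shapes for the replicate numbers. The ratios of *Col4a2* and *Hspg2* to *Col4a1* stay within narrow bands (SD 0.155 and 0.184), *Nid1* to *Col4a1* departs in CharmeKO 3 (0.75), and *Nid2* to *Nid1* in CharmeKO 2 and 3 (1.49 and 0.79).

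*Hspg2* (ENSMUSG00000028763, chr4:137468769-137570630, plus strand) encodes perlecan, the large heparan sulfate proteoglycan that binds nidogens, laminins and growth factors. It had 130789, 90183 and 144729 normalised reads in WT and 116082, 65018 and 108024 in CharmeKO. Each CharmeKO library was under its same-numbered WT library, by log2 differences of -0.17, -0.47 and -0.42, but WT 2 lay under CharmeKO 1 and CharmeKO 3. Its log2 fold change was -0.36 (SE 0.387), and -0.094 without CharmeKO 2. That fit kept WT 2, the lowest WT library, while pairs 1 and 3 were at -0.17 and -0.42. With the replicate number as a block in limma the SE was 0.189 and the unadjusted p 0.126 (limma adjusted p = 0.7997). *Hspg2* followed *Col4a1*, with a pattern 0.168 log2 units away and a ratio per kb of 0.315 to 0.421. That ratio averaged -1.42 ± 0.195 on the log2 scale among WT libraries (SD, n = 3) and -1.49 ± 0.205 among CharmeKO libraries, which differ by less than the spread within either group.

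*Agrn* (ENSMUSG00000041936, chr4:156165290-156197488, minus strand) encodes agrin, a heparan sulfate proteoglycan best known for clustering acetylcholine receptors at the neuromuscular junction and a ligand of dystroglycan. It had 5321, 6003 and 5656 normalised reads in WT and 3682, 2920 and 5090 in CharmeKO. *Agrn* alone of the 9 genes had groups that did not overlap with CharmeKO lower (1 gene), which was so for 1.98% of all genes tested. Its limma adjusted p was 0.9999 and its unadjusted limma p of 0.0416 was the only one of the 9 under 0.05 in this fit. Which gene this was depended on the tool. With edgeR the unadjusted p was 0.0587 for *Agrn* and 0.0388 for *Nid2* (adjusted 0.99997 for both), and with DESeq2 0.0491 and 0.00498 (adjusted 0.99994 for both). Without CharmeKO 1 the unadjusted limma p was 0.092 for *Agrn* and 0.0062 for *Nid2* (adjusted 0.997 for both). DESeq2 with the replicate block gave unadjusted p-values of 0.00981 for *Hspg2* and 0.0124 for *Agrn* (adjusted 0.427 and 0.467). CharmeKO libraries were at 0.651, 0.516 and 0.899 times the WT mean, so CharmeKO 3 lay close to WT. Its fold change on the log2 scale was -0.57 (SE 0.227), from -0.79 without CharmeKO 3 to -0.38 without CharmeKO 2. With the replicate number as a block the SE was 0.190 and the unadjusted p 0.0339 (limma adjusted p = 0.7997). Per kb, *Agrn* stood at 0.0489 to 0.103 of *Hspg2*.

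Set side by side, the mean log2 value in CharmeKO was under that in WT for 5 of the 9 genes and above it for 4, with a median difference of -0.28, against 0.0022 over all genes tested. This sign rested on the fit of log2 values. On the recovered reads the median was 0.14 with edgeR and 0.14 with DESeq2, and 0.023 and 0.015 with the replicate block, with *Col15a1* above 0 in each, which gave 4 genes lower and 5 higher. Of the 9, 0 had a limma adjusted p under 0.05, as for all genes (0% called; 143 of 15948 genes had an unadjusted p under 0.05), and edgeR and DESeq2 called 0 of the 9 as well. *Hspg2* and *Agrn* were lower in all 3 same-numbered pairs, a pattern seen in 14.0% of all genes, and *Col18a1* was higher in all 3, as were 16.4% of all genes. The members were chosen with these differences known, so the counts describe them and support nothing. Highest in CharmeKO 3 were 4 of the 9 genes (*Col4a5*, *Col15a1*, *Nid1* and *Nid2*), and 7 were lowest in CharmeKO 2. For *Col4a1*, *Col4a2*, *Nid1* and *Hspg2*, WT 2 was also the lowest WT library. The share of all genes with these extremes was not counted, so they say nothing particular to the 9 genes. The replicate number held more of the variance than genotype for 7 of the 9 genes. It has more levels than genotype, so it takes the larger share on average even where neither has an effect. The replicate number held 16.9% (*Agrn*) to 87.9% (*Col18a1*) of a gene's variance and genotype 0.0328% (*Nid1*) to 59.3% (*Agrn*), with medians over all genes of 73.8% and 5.91%.

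**Figure D5:**
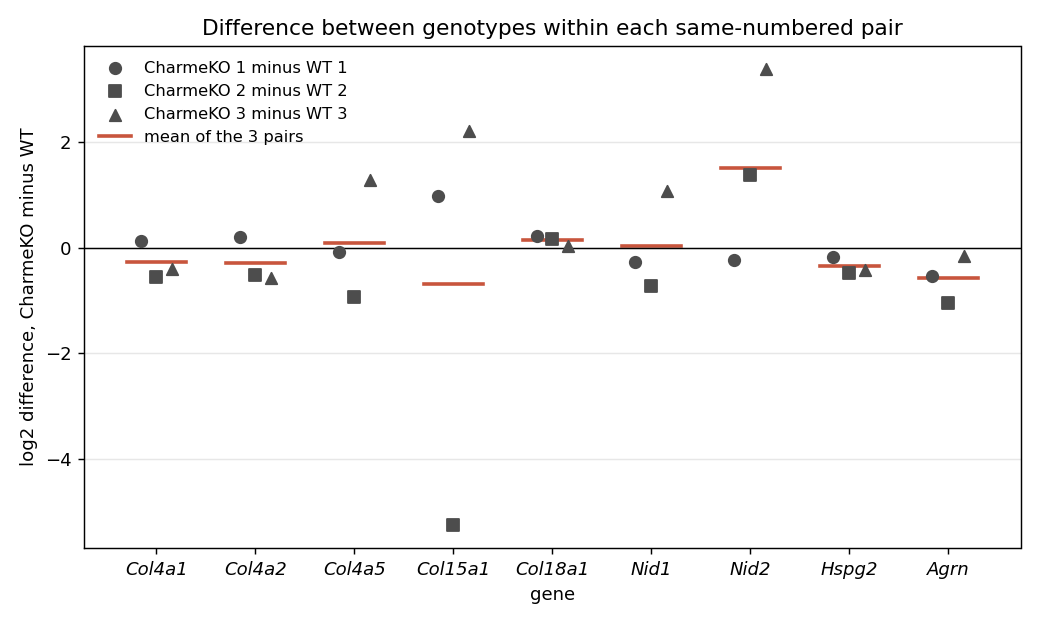
Log2 difference of CharmeKO minus WT within each same-numbered pair (vertical axis) for the 9 genes (horizontal axis), with red bars for the mean of the 3 pairs and a line at 0. *Hspg2* and *Agrn* lie under 0 in all 3 pairs and *Col18a1* above it, while *Col15a1* spreads from -5.26 to 2.21 and *Nid2* from -0.24 to 3.39.

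Other genes of the basement membrane pathway were read from 6 lists. None of their genes passed the limma adjusted threshold in either direction (0 of each list), and all the lists' named genes had an adjusted p of 0.9999. Of the laminin chains, which form the second network, 11 were tested, with 7 lower, 4 higher and a median log2 difference of -0.07. Those with the lowest p were *Lama3* (-0.77, SE 0.670) and *Lama2* (-1.33, SE 1.33). *Lama2*, the alpha chain typical of muscle basement membranes, had 7654, 735 and 2054 normalised reads in WT and 6171, 358 and 327 in CharmeKO. Its libraries numbered 1 were the highest of both genotypes.

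Of the other components of basement membranes, 17 of 20 genes were tested, with a median of -0.36, 11 lower and 6 higher. Those with the lowest p, *Col17a1* (-0.99, SE 0.654) and *Col4a3* (-1.82, SE 1.21), both had at most 72.9 normalised reads in any library. Among 16 genes of collagen IV assembly, secretion and cross-linking, 9 were lower and 7 higher (median -0.13). The leading ones, *Sec24d* (-0.21, SE 0.164) and *Sec23a* (-0.37, SE 0.290), encode parts of the COPII coat that carries procollagen out of the endoplasmic reticulum. The 18 genes of heparan sulfate chain synthesis had a median of -0.05, with 10 lower and 8 higher. Their leading genes were the extracellular sulfatases *Sulf1* (-0.83, SE 0.744) and *Sulf2* (0.46, SE 0.425), which trim sulfate groups from these chains and here pointed in opposite directions.

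Of 18 receptors that bind basement membranes, 11 were lower and 7 higher (median -0.07), with 5 lower and 3 higher in all pairs (14.0% and 16.4% of all genes tested). *Itga1*, the alpha subunit of a collagen IV-binding integrin, had 677, 1582 and 1034 normalised reads in WT and 506, 614 and 618 in CharmeKO. *Sgcd*, which encodes delta-sarcoglycan of the dystrophin complex, had 162, 157 and 398 in WT and 121, 120 and 45.2 in CharmeKO. The groups did not overlap for either, with log2 differences of -0.84 (SE 0.326) and -1.30 (SE 0.565). These 2 of 18 receptors stand beside 1.98% of all genes tested. Of 16 turnover genes tested, 5 were lower and 11 higher, 5 of them in all pairs (16.4% of all genes), and the median was 0.15. *Tll1*, a procollagen protease of the BMP1 family, had 3396, 4201 and 4804 in WT and 1927, 416 and 4085 in CharmeKO (-1.46, SE 0.776). *Ctsb*, the lysosomal protease cathepsin B, had 59536, 69777 and 49757 in WT and 75528, 106401 and 68745 in CharmeKO (0.47, SE 0.306), higher in every pair while the groups overlapped.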

How the data were processed

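The libraries were poly(A)-selected, strand-specific cDNA. Per the study's methods, the authors aligned reads with STAR, counted them per gene on the reverse strand (Ensembl release 87, with *Charme* added), dropped low genes and applied DESeq2 normalisation. What they deposited is thus a read signal scaled by the size factor of each library. The methods name mouse assembly 39 while that Ensembl release is of GRCm38. The table holds no coordinates, so positions and exon lengths were taken from GENCODE M21 (GRCm38, 19373 of 19445 Ensembl IDs matched). Of 116676 values, 100% were whole multiples of the smallest positive value of their library (largest deviation 6.3e-09), which gave back the reads. Groups and replicate numbers came from sample titles, and 0 columns belonged to other samples.

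The main test was limma 3.58.1 (mean-variance trend, two-sided, Benjamini-Hochberg adjusted, threshold 0.05) on log2(value + 1), which understates changes of low genes, over genes that reached 10 reads in 2 or more libraries. edgeR 4.0.16 (quasi-likelihood) and DESeq2 1.42.0 on the recovered reads, other pseudocounts, filters and scalings, the replicate block and leaving out each library were alternatives. Fits that left out a library had no replicate block and kept its same-numbered partner, so they did not separate replicate number from genotype. Software was R 4.3.3, Python 3.11.15 and matplotlib 3.10.9. The fits were tested on simulated reads without replicate differences, so that check does not cover the replicate structure of these libraries. Deviations of same-numbered libraries from their group means correlated across genes with r = 0.762, 0.514 and 0.217 (differently numbered, -0.643 to 0.222), so the numbers were taken to pair the libraries. Pair 3 is the least certain, since CharmeKO 3 correlated as well with WT 2 (r = 0.222) as with WT 3 (r = 0.217). The members and lists were chosen with earlier results of these data known. Named genes are the 9 members, the 5 genes nearest in pattern to *Col4a1* and to each nidogen (*Nid1* is highest per kb in 4 of 6 libraries, *Nid2* in the mean), and the 2 genes of lowest limma p in each list. Of the genes this rule names, 1 is not reported here. Other genes were chosen after their values had been seen.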

Additional observations from a re-analysis of the deposited data

How the results depend on the processing

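Past the adjusted threshold there were 0 genes in limma and in 16 of 18 alternatives, 8 with DESeq2 alone and 64 with DESeq2 and the replicate block, and 0 in each fit that left out a library. None of the 9 genes was called in any of the 18, so the replicate block changed no call among them. With the replicate block in limma, 857 of the 15948 genes tested had an unadjusted p under 0.05, against 143 (0.897%) without it. Neither fit had a gene past the adjusted threshold, so the rise does not count genotype differences. In the fit with the block the SE was 0.249 for *Col4a1*, 0.237 for *Col4a2*, 0.444 for *Col4a5* and 1.55 for *Col15a1*. It was 0.0887 for *Col18a1*, 0.392 for *Nid1*, 0.715 for *Nid2*, 0.189 for *Hspg2* and 0.190 for *Agrn*, in each case smaller than without the block. The median difference of the 9 genes was 0.14 with edgeR and 0.14 with DESeq2 (0.023 and 0.015 with the replicate block), against -0.28 in limma, and -0.51 to -0.022 with single libraries left out. *Col15a1* was at 0.86 with edgeR and 0.85 with DESeq2, and at 0.039 with either and the replicate block. Mean normalised reads of *Col15a1* were higher in CharmeKO (3215, with CharmeKO 3 at 8972) than in WT (1773), while its mean log2 value was lower. The cause of the reversed sign was not tested. With single libraries left out, *Col15a1* ranged from -2.47 to 0.93, *Col4a5* from -0.30 to 0.56 (-0.11 without WT 3), *Col18a1* from -0.022 to 0.28 and *Nid1* from -0.71 to 0.57 (-0.029 without WT 1, -0.14 without WT 2). *Col4a1* (-0.52 to -0.046), *Col4a2* (-0.62 to -0.097), *Hspg2* (-0.56 to -0.094), *Agrn* (-0.79 to -0.38) and *Nid2* (0.59 to 2.41) kept their direction in all 18 alternatives. The fits with a library left out were unpaired, as the same-numbered partner of that library was kept. The count of the 9 genes lying lower in CharmeKO without overlap, 1 with all libraries, was 2 without WT 2, 3 without CharmeKO 1 and 2 without CharmeKO 3, a check chosen after seeing the data. Groups separate more easily with fewer libraries, and the share of all genes was not counted with a library left out. These counts therefore say nothing particular to the 9 genes. With 3 libraries per group, precision was limited by the spread between libraries.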
